A study of Mus musculus with 6 samples.

Results

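The genes described here are 49 genes of DNA replication and nucleotide synthesis, chosen by symbol: the subunits of the replicative helicase, the origin recognition complex, the loading factors, the replicative polymerases, the sliding clamp and its loader, the proteins of Okazaki fragment maturation, replication protein A and 5 enzymes of deoxynucleotide supply. Each gene was read from the brightest of its probes, and 45 of the 49 had a brightest probe that was detected, among 9808 genes tested of 19057 genes named on the array. The remaining 4, Gmnn, Pola1, Prim1 and Pole2, were not detected on any of the 6 arrays by any of their probes, and no change is given for them. Gmnn, Pola1 and Prim1 have 1 probe each and Pole2 has 2. A probe that does not work cannot be told here from a gene that is not expressed. RNA came from 2 groups of mouse embryonic stem (ES) cells, 3 arrays each: cells transfected with a pHYPER vector expressing a short hairpin RNA against Chd4 (shChd4), and control-transfected cells (control). Both groups were grown with LIF and 15% serum on fibroblast feeders inactivated with mitomycin C, were electroporated, and were kept in puromycin for 48 h starting 24 h after transfection. The labels do not describe the control vector, name the ES cell line or say whether the 3 shChd4 arrays carried the same hairpin.

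DNA replication begins when the origin recognition complex, with Cdc6 and Cdt1, loads the Mcm2 to Mcm7 ring onto DNA before S phase. Cdc45 and the GINS complex then turn the ring into an active helicase, polymerase alpha-primase lays down primers, and polymerases delta and epsilon extend them, held to DNA by the Pcna clamp that replication factor C loads. Ribonucleotide reductase, thymidylate synthase, thymidine kinase and dUTPase supply the deoxynucleotides. In mammalian cells many of these genes are transcribed at the G1 to S transition under E2F factors, and mouse ES cells, which divide fast, express them strongly.

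The promoters of the genes were examined for the E2F motif. The windows, which are RefSeq sequence of GRCm38.p6, run from 250 bases before to 50 bases after an annotated start, and 41 of the 49 genes had one; none is given for Mcm4, Gmnn, Gins1, Gins2, Gins4, Prim2, Pole and Rfc2. The motif was searched as TTTCCCGC, TTTCGCGC, TTTGCCGC or TTTGGCGC on either strand, and matches may overlap. It was present in 16 of the 41 genes, or 39.0%, against 4.79% of the 7960 tested genes with a window and 2.6% of all 27025 genes with a window. Many genes of the list are transcribed under E2F factors, so an excess could come from the choice of genes alone, and its source was not tested. The count takes no account of the response to Chd4 shRNA and does not describe it. Below are 5 windows, each without its last 20 bases, with motif matches in capitals. They show a gene with 3 matches (Mcm6, chr1:128359676-128359955, minus strand), genes with 1 match (Orc1, chr4:108579204-108579483, plus strand, and Cdc6, chr11:98907901-98908180, plus strand), the gene with the largest fall (Pold2, chr11:5878227-5878506, minus strand, the first of its 2 windows) and the only gene that rose (Pold4, chr19:4231643-4231922, plus strand).
Mcm6: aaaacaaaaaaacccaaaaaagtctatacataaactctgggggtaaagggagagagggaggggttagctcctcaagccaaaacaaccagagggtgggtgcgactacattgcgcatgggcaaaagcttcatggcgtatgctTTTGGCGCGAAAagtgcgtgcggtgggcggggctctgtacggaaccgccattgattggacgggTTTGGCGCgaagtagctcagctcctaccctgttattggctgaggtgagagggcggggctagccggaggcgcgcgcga
Orc1: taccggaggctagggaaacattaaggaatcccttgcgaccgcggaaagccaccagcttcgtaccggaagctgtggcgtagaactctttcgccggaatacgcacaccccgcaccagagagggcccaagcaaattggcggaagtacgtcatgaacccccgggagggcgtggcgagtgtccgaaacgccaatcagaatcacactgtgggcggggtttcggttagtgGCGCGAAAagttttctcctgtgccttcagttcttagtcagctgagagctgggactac
Cdc6: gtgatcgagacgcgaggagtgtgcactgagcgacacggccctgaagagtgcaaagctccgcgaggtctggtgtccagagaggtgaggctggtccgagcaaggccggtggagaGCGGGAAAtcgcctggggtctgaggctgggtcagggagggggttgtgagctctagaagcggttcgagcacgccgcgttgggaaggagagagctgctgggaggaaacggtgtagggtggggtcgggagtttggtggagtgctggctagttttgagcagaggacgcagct
Pold2: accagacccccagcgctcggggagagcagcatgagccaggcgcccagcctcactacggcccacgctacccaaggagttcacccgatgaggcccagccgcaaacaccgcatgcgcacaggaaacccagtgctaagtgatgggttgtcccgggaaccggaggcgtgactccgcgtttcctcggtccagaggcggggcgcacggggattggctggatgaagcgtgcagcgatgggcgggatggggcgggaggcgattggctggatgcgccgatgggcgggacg
Pold4: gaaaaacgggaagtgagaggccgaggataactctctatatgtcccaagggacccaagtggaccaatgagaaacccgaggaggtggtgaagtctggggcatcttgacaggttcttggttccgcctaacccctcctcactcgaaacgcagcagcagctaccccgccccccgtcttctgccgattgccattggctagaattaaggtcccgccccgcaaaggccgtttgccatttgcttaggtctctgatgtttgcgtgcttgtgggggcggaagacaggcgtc

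In Mcm6 the matches begin at -110, -106 and -47 relative to the start, and the first pair overlaps. The Orc1 match begins at -27 and the Cdc6 match at -138. None of these letter strings occurs in the Pold2 or Pold4 windows. Of the 24 genes with a window that were lower after Chd4 shRNA by the test described next, 10 held a match, or 41.7%. Among the 14 tested genes with a window that were not lower, Orc3, Gins3, Pole4 and Rfc3 held one, or 28.6%. The CCAAT box, searched on both strands, was in 54.2% of the lower genes, 64.3% of those not lower and 43.4% of tested genes. The differences between lower genes and those not lower were not tested. A match describes the letters only and is not a measured binding site.

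**Figure D1:**
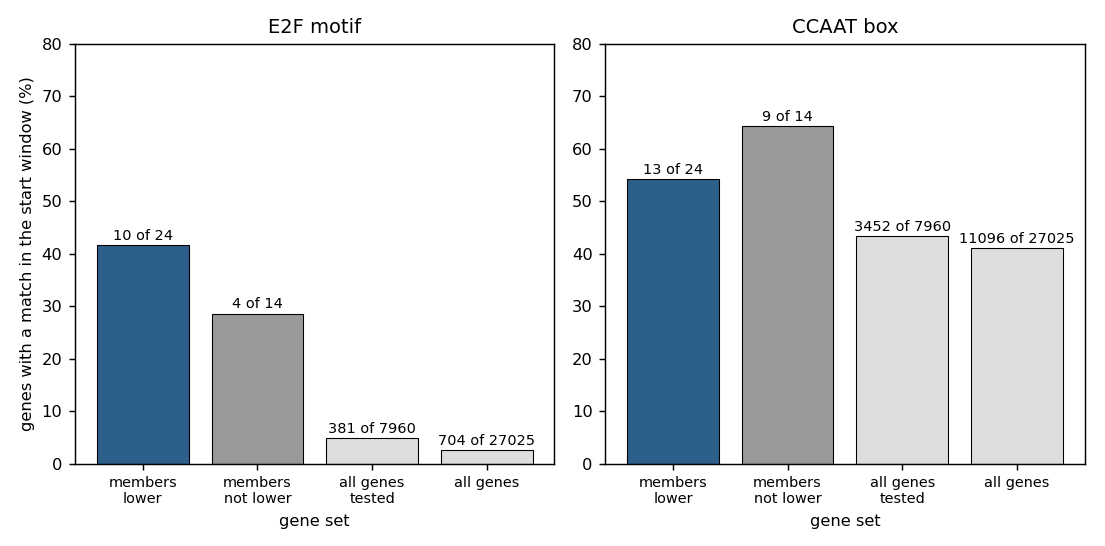
Share of genes (%, bars; counts of genes printed above) with at least 1 match to the E2F motif (left) or the CCAAT box (right) between 250 bases before and 50 bases after the start, for replication genes called lower, tested replication genes not called lower, all genes tested and all genes with a window. The E2F bars stand at 41.7% and 28.6% for the replication genes, against 4.79% and 2.6% for the wider sets.

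Replication genes were lower on the shChd4 arrays. Of the 45 tested, 30 fell and 1 rose at a limma adjusted p under 0.05, where 18.2% of all genes tested fell and 19.9% rose (38.1% changed in either direction). As a share, 66.7% of the replication genes fell and 2.22% rose. Their median log2 fold change, shChd4 minus control, was -0.61, which leaves 65.3% of the control intensity, against a median of -0.048 for all genes tested. On every shChd4 array 33 of the 45 lay below every control array, or 73.3%, a pattern found in 25.3% of all genes tested. Falls of at least 2-fold were called for 7 of the 45, or 15.6%, namely Pold2, Gins2, Cdc6, Tk1, Pold1, Pola2 and Pold3, against 3.82% of all genes tested. These genes were chosen as a list with earlier results of these data known, so the shares describe it and were not tested.

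**Figure D2:**
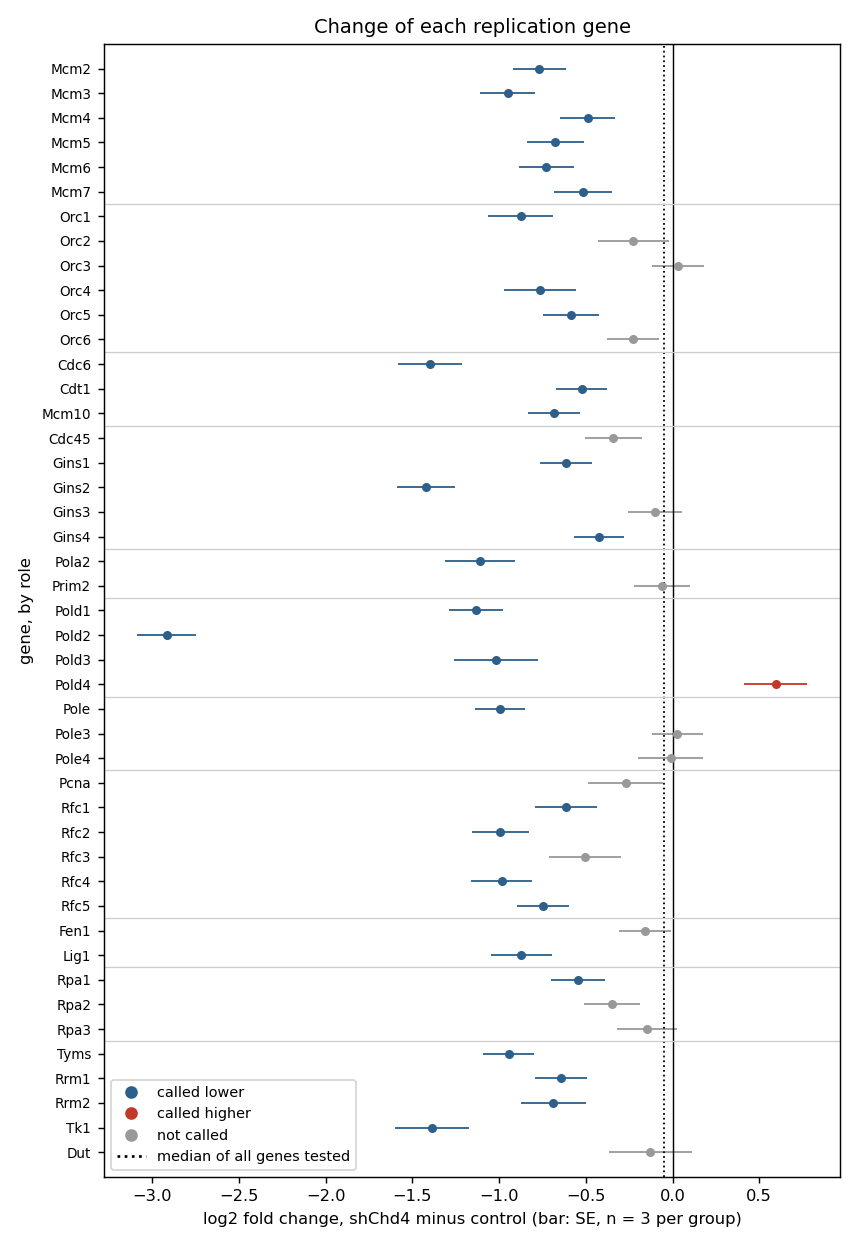
Log2 fold change (shChd4 minus control) of each of the 45 tested replication genes, ordered by role from helicase to nucleotide synthesis; bars are the moderated SE (n = 3 per group), colours give the limma call, and the dotted line is the median of all genes tested. Points run from -2.92 for Pold2 to 0.59 for Pold4, and 30 are called lower.

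The Chd4 transcript itself, read first as a check of the labels, had log2 intensities of 8.06, 7.91 and 8.33 on the shChd4 arrays and 10.13, 10.13 and 10.17 on the control arrays. It fell by 2.04 on the log2 scale (SE 0.16, n = 3 per group; limma adjusted p = 6.33e-06). The labels of all 6 arrays matched this. Between 37.7% and 38.7% of probes were detected on the shChd4 arrays and between 34.9% and 35.6% on the control arrays. The titles place each group on a BeadChip of its own, and the effects of chip and group cannot be told apart. Whether the 3 arrays of a group stem from separate cultures is not stated, and the p-values cover the spread among these arrays, which may be technical.

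All 6 genes of the Mcm2 to Mcm7 ring, the motor of the replicative helicase, fell, by 0.49 to 0.95 on the log2 scale. Mcm3 had log2 intensities of 8.86, 8.86 and 9.13 on the shChd4 arrays and 10.08, 9.80 and 9.82 on the control arrays. The groups did not overlap, and the log2 difference was -0.95 ± 0.16 (SE, 3 arrays per group; limma adjusted p = 0.00099). Mcm2 read 10.56, 10.67 and 10.66 in shChd4 cells and 11.24, 11.42 and 11.53 in control cells, a change of -0.77 ± 0.15 (limma adjusted p = 0.00259). Mcm6 read 9.72, 10.02 and 9.66 in shChd4 cells and 10.57, 10.46 and 10.56 in control cells, a change of -0.73 ± 0.16 (limma adjusted p = 0.0043). Each of these genes was thus lower on every shChd4 array, by more than the spread within a group. Mcm5, Mcm7 and Mcm4 fell, with changes of -0.68, -0.51 and -0.49. The Mcm6 call was lost with the mean of its detected probes (-0.26, adjusted p = 0.172). The Mcm4 and Mcm7 calls were lost when most single arrays were left out (Mcm4 -0.43 to -0.54, adjusted p 0.0559 to 0.0983, without shChd4 replicate 1 or 3 or any control array; Mcm7 -0.39 to -0.56, adjusted p 0.0513 to 0.11, without any single array except shChd4 replicate 3).

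The factors that load the ring, and Mcm10, fell by unequal amounts. Cdc6, the ATPase that recruits the ring to origins, had log2 intensities of 6.96, 6.91 and 6.37 on the shChd4 arrays and 8.26, 8.07 and 8.10 on the control arrays. The difference was -1.40 ± 0.19 (SE, 3 arrays per group; limma adjusted p = 0.000198), leaving 38.0% of the control intensity. The Cdc6 change was -0.85 without background correction and -0.90 with the authors' deposited values, with a call in both. Cdt1, its partner in loading, read 10.92, 11.08 and 10.88 in shChd4 cells and 11.53, 11.48 and 11.44 in control cells. It fell by 0.52 (SE 0.15; limma adjusted p = 0.0163), and the call was lost without control replicate 1 (-0.50, adjusted p = 0.0543) or 2 (-0.52, adjusted p = 0.0528). Mcm10, which acts when the helicase is activated, read 10.80, 11.07 and 10.86 in shChd4 cells and 11.63, 11.55 and 11.59 in control cells, a change of -0.68 ± 0.15 (limma adjusted p = 0.0047). For Cdc6, Cdt1 and Mcm10 the groups did not overlap. Gmnn, which encodes geminin, the inhibitor of Cdt1, was not detected on its only probe.

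In the origin recognition complex, 3 of 6 subunit genes were called lower. Orc1, the largest subunit, read 5.95, 6.20 and 5.54 in shChd4 cells and 6.69, 6.93 and 6.70 in control cells, a change of -0.88 ± 0.19 (SE, n = 3 per group; limma adjusted p = 0.00416). Orc4 read 5.38, 4.65 and 5.23 in shChd4 cells and 5.79, 5.68 and 6.10 in control cells, a change of -0.77 ± 0.21 (limma adjusted p = 0.0141). The Orc4 signal was low, with a mean of 5.09 in shChd4 cells, where it was detected on 2 of the 3 arrays. Orc5 read 9.74, 9.71 and 9.43 in shChd4 cells and 10.28, 10.29 and 10.06 in control cells, a change of -0.58 ± 0.16 (limma adjusted p = 0.0143). Orc2, Orc3 and Orc6 did not pass the test, with changes of -0.23, 0.032 and -0.23. Orc2 and Orc3 had a low signal, with mean log2 intensities in shChd4 and control cells of 5.16 and 5.39 for Orc2 and 5.45 and 5.42 for Orc3. Their small changes therefore do not show that they held steady. The Orc2 and Orc3 groups overlapped, whereas every shChd4 array was below every control array for Orc6. The Orc1 change was -0.37 without background correction and -0.40 with the authors' deposited values, with a call in both. Orc4 was -0.43 with an offset of 50, still called, and lost its call without background correction (-0.23, adjusted p = 0.0623), with the authors' deposited values (-0.25, adjusted p = 0.0565) and without control replicate 3 (-0.64, adjusted p = 0.0536). Orc5 lost its call without shChd4 replicate 3 (-0.49, adjusted p = 0.0533) or control replicate 2 (-0.54, adjusted p = 0.0574).

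Among the genes that complete the helicase, Gins2 stood lowest. Its brightest probe read 7.87, 8.37 and 8.09 on the shChd4 arrays and 9.52, 9.56 and 9.52 on the control arrays, a fold change of -1.42 ± 0.17 (SE, n = 3 per group; limma adjusted p = 8.37e-05). The control arrays lay within a narrow band and every shChd4 array was more than a log2 unit below it. Its 2 further probes changed by -1.45 and -1.37. Gins1 read 9.04, 9.18 and 9.33 in shChd4 cells and 9.82, 9.80 and 9.78 in control cells, a change of -0.61 ± 0.15 (limma adjusted p = 0.00826). Gins4 fell by 0.42 (SE 0.15; limma adjusted p = 0.0397), reading 10.81, 10.78 and 10.71 in shChd4 cells and 11.28, 11.12 and 11.16 in control cells. The Gins4 call was lost without any single array (-0.38 to -0.46; adjusted p 0.0629 to 0.126). Gins3 and Cdc45 did not pass the test, with changes of -0.10 and -0.34, although every shChd4 array was below every control array for Cdc45. The 4 genes of this GINS complex, whose proteins act as 1 unit, had measured changes from -1.42 to -0.10. Gins3 had a low signal, with mean log2 intensities of 5.74 in shChd4 cells and 5.84 in control cells. Its small change therefore does not show that it held steady.

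Polymerase delta, which extends the lagging strand, held both the largest fall and the only rise. Pold2, an accessory subunit that bridges the catalytic subunit to the rest of the enzyme, read 7.21, 7.53 and 7.01 on the shChd4 arrays and 10.12, 10.20 and 10.18 on the control arrays. It changed by -2.92 ± 0.17 (SE, 3 arrays per group; limma adjusted p = 1.34e-06), leaving 13.3% of the control intensity. Only 3 of the 9808 genes tested had a lower fold change, and the change of Chd4 itself ranked 18 on the same scale. Pold2 has 1 probe in the annotation used here, so no further probe could check it. Its change lay between -3.06 and -2.26 in all 15 alternative analyses, each with a call.

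The other delta subunits moved less. Pold1, the catalytic subunit, read 9.96, 10.26 and 10.09 in shChd4 cells and 11.13, 11.30 and 11.28 in control cells, a change of -1.13 ± 0.15 (limma adjusted p = 0.000239). Pold3 read 7.27, 7.81 and 6.74 in shChd4 cells and 8.24, 8.15 and 8.48 in control cells, a change of -1.02 ± 0.24 (limma adjusted p = 0.00679). For Pold1 and Pold3 every shChd4 array was below every control array, with shChd4 replicates 1 and 3 of Pold3 the furthest. Pold3 was -0.66 without background correction, with a call. Pold4, the smallest subunit, read 6.76, 6.26 and 6.41 in shChd4 cells and 5.65, 6.00 and 5.99 in control cells. It rose by 0.59 ± 0.18 (SE; limma adjusted p = 0.0231), its groups did not overlap, and its further probe changed by 0.70. The Pold4 call was lost without background correction (0.24, adjusted p = 0.0562), with the authors' deposited values (0.26, adjusted p = 0.0519), without shChd4 replicate 1 (0.45, adjusted p = 0.088) and without control replicate 1 (0.48, adjusted p = 0.0911).

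Of the other polymerases, Pole and Pola2 fell. Pole, the catalytic subunit of the leading-strand polymerase epsilon, read 6.51, 6.39 and 6.34 in shChd4 cells and 7.39, 7.42 and 7.42 in control cells, a change of -0.996 ± 0.145 (SE, n = 3 per group; limma adjusted p = 0.000373). The Pole change was -0.52 without background correction and -0.56 with the authors' deposited values, with a call in both. Pole3 and Pole4, its histone-fold subunits, changed by 0.028 and -0.0098 and did not pass the test. The 2 further Pole3 probes changed by 0.029 and 0.037. Of polymerase alpha-primase, Pola2, the accessory subunit, read 8.01, 8.23 and 7.46 in shChd4 cells and 8.93, 9.05 and 9.05 in control cells, a change of -1.11 ± 0.20 (limma adjusted p = 0.00144). Prim2, the large primase subunit, changed by -0.060 and did not pass, and its further probe changed by -0.23. The catalytic subunit genes Pola1 and Prim1 were not detected, each on its only probe.

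**Figure D3:**
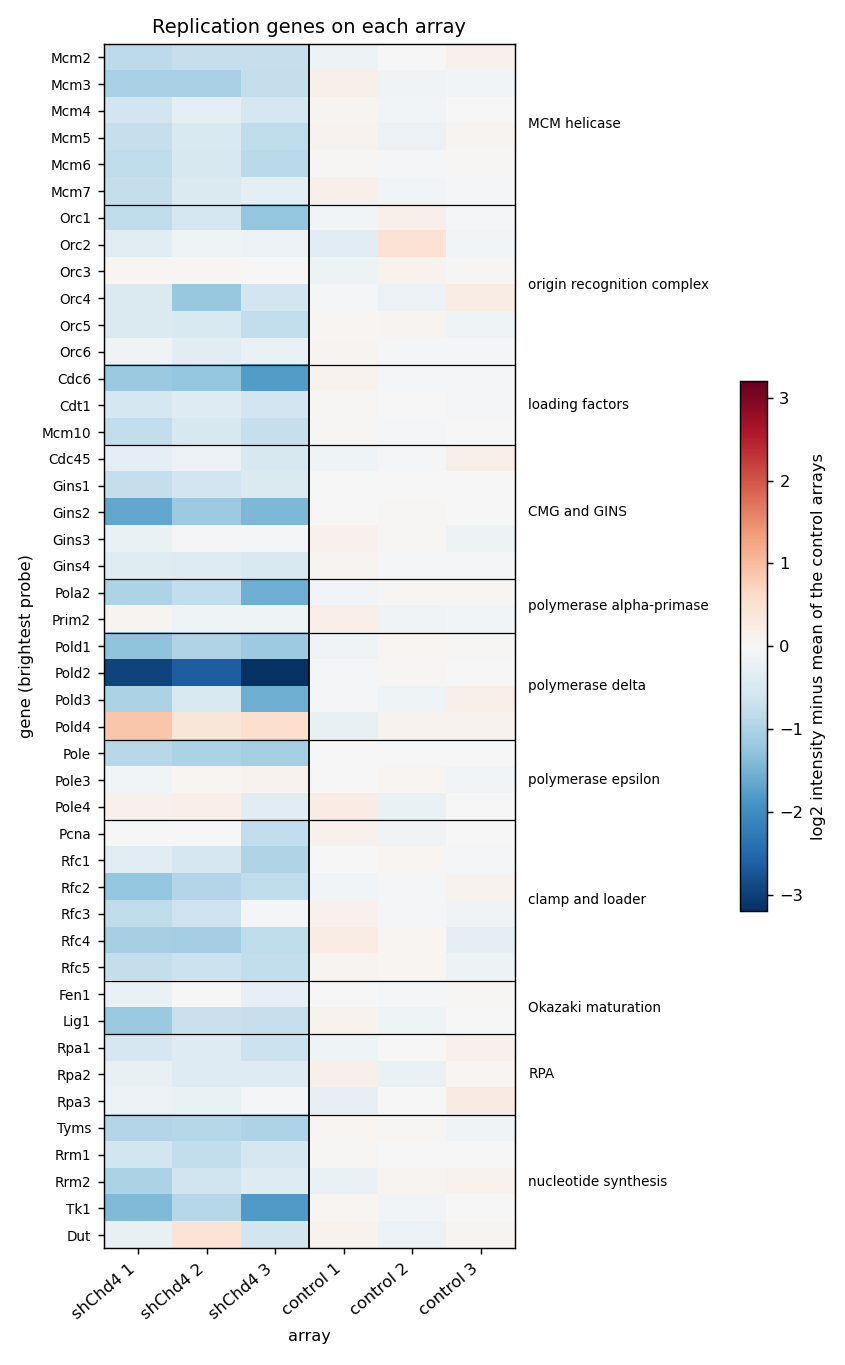
Each of the 45 tested replication genes (rows, grouped by role) on each array (columns), coloured by log2 intensity minus the mean of the 3 control arrays. The 3 shChd4 columns are blue for most genes, deepest for Pold2 (fold change -2.92), while Pold4 is red on all 3 of them.

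Of the 5 genes of the clamp loader, 4 fell. Rfc2 read 10.33, 10.64 and 10.74 on the shChd4 arrays and 11.48, 11.54 and 11.68 on the control arrays, a change of -0.99 ± 0.16 (SE, n = 3 per group; limma adjusted p = 0.000851). Its 3 further probes changed by -0.95, -0.91 and -0.93. Rfc4 read 7.87, 7.85 and 8.10 in shChd4 cells and 9.16, 8.99 and 8.63 in control cells, a change of -0.98 ± 0.18 (limma adjusted p = 0.00144). Rfc5 read 9.89, 9.96 and 9.85 in shChd4 cells and 10.74, 10.70 and 10.49 in control cells, a change of -0.75 ± 0.15 (limma adjusted p = 0.00284). In all 3 the groups were apart. Rfc1, the largest subunit, fell by 0.61, a call lost without shChd4 replicate 3 (-0.44, adjusted p = 0.07) or control replicate 2 (-0.59, adjusted p = 0.0634). Rfc3 changed by -0.50 (limma adjusted p = 0.0786), short of the threshold, and was called lower once shChd4 replicate 3 was left out (-0.74, adjusted p = 0.0103). Pcna, the clamp gene, read 5.74, 5.75 and 4.97 in shChd4 cells and 5.89, 5.64 and 5.75 in control cells on its only probe. It changed by -0.27 ± 0.21 (SE; limma adjusted p = 0.349), with its groups overlapping, and its difference from the loader genes was not tested. The Pcna value rested on shChd4 replicate 3, without which it was -0.013. Its signal was low on all 6 arrays, so the small change does not show that Pcna held steady.

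Of the Okazaki fragment genes, Lig1, the ligase that seals the fragments, fell and Fen1, the nuclease that trims their flaps, did not pass. Lig1 read 8.66, 9.14 and 9.11 in shChd4 cells and 9.96, 9.71 and 9.86 in control cells, a change of -0.87 ± 0.17 (SE, n = 3 per group; limma adjusted p = 0.00276). Fen1 changed by -0.16 ± 0.15 (limma adjusted p = 0.435), and its groups overlapped. Replication protein A coats single-stranded DNA, and its largest subunit gene, Rpa1, read 12.39, 12.53 and 12.26 in shChd4 cells and 12.80, 12.93 and 13.09 in control cells. Rpa1 fell by 0.54 (SE 0.16; limma adjusted p = 0.0185), a call lost without shChd4 replicate 3 (-0.48, adjusted p = 0.0616), control replicate 2 (-0.55, adjusted p = 0.0549) or control replicate 3 (-0.47, adjusted p = 0.0663). Rpa2 and Rpa3 changed by -0.35 and -0.15 and did not pass.

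Of the 5 nucleotide genes, 4 fell. Tk1, the thymidine kinase that salvages thymidine and peaks in S phase, read 7.76, 8.27 and 7.36 on the shChd4 arrays and 9.25, 9.10 and 9.20 on the control arrays. It fell by 1.39 (SE 0.21, n = 3 per group; limma adjusted p = 0.000546), leaving 38.3% of the control intensity. Tyms, which makes thymidylate, read 9.83, 9.85 and 9.79 in shChd4 cells and 10.84, 10.81 and 10.64 in control cells, a change of -0.94 ± 0.15 (limma adjusted p = 0.000572), or -0.43 as the mean of its detected probes (adjusted p = 0.0324). Tk1 and Tyms were lower on every shChd4 array. Rrm1, the large subunit of ribonucleotide reductase, read 9.03, 8.85 and 9.11 in shChd4 cells and 9.68, 9.63 and 9.62 in control cells, a change of -0.64 ± 0.15 (limma adjusted p = 0.00625). Rrm2, its small subunit, fell by 0.69, a call lost with the mean of its detected probes (-0.44, adjusted p = 0.0711) and without shChd4 replicate 1 (-0.53, adjusted p = 0.0535) or control replicate 2 (-0.64, adjusted p = 0.0507). Dut, the dUTPase that keeps uracil out of DNA, read 6.21, 6.87 and 5.85 in shChd4 cells and 6.55, 6.24 and 6.52 in control cells. Dut did not pass (-0.13 ± 0.24; limma adjusted p = 0.707), and its shChd4 arrays lay on both sides of the control arrays.

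Further probes gave a check on the brightest ones. For the 30 genes called lower, 14 had further detected probes, 26 in all, and 22 of these changed in the same direction. The 4 that did not belong to Mcm6 (0.51, detected on 3 arrays), Tyms (0.38, detected on 3 arrays), Lig1 (0.17, detected on 5 arrays) and Rrm2 (0.066, detected on 6 arrays). Each of these genes had at least 1 brighter further probe that was called lower, with changes of -0.56 for Mcm6, -1.13 for Tyms, -1.02 for Lig1 and -0.69 for Rrm2. With p-values adjusted over all 14610 named probes detected, 18 of the 26 were called lower and the upward Mcm6 probe was called higher (limma adjusted p = 0.0305). For Rpa2, which was not called, further probes changed by 0.17 and -0.65.

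**Figure D4:**
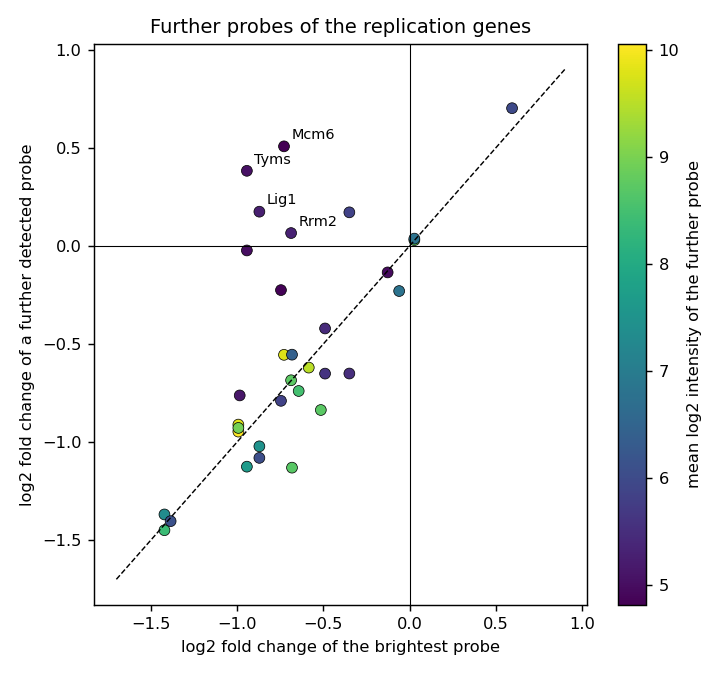
Log2 fold change of each further detected probe (vertical axis) against that of the brightest probe of the same gene (horizontal axis), coloured by the mean log2 intensity of the further probe; the dashed line marks equality. The 4 named probes lie above 0 although the brightest probe of their gene was called lower, from 0.066 for Rrm2 to 0.51 for Mcm6.

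The 3 shChd4 arrays did not carry the falls equally. Set against the control mean, the median of the 45 genes was -0.73, -0.51 and -0.68 on shChd4 replicates 1, 2 and 3, against 0.041, -0.013 and -0.000887 on the control arrays. Within the shChd4 group, 23 of the 45 genes were highest on replicate 2 and 7 were lowest there, while 24 were lowest on replicate 3. For comparison, 35.7% of all genes tested were highest on replicate 2, 33.2% were lowest there and 32.8% were lowest on replicate 3. The means of the replication genes were 8.61, 8.72 and 8.55 on the shChd4 arrays and 9.28, 9.25 and 9.27 on the control arrays.

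Markers of the cell types in the culture differed between the same arrays. Fibroblast genes, listed as markers of the feeder cells, rose for 14 of the 16 tested of 22 listed, with 0 falls and a median of 2.52. The share higher was 87.5%, against 19.9% of all genes tested. Whether this RNA came from the feeders or from the transfected cells cannot be told from these arrays. The array means of this list were 8.60, 8.36 and 8.66 in shChd4 cells and 5.97, 6.40 and 6.43 in control cells, so shChd4 replicate 2 had the lowest fibroblast mean of its group and the highest replication mean. All 16 were detected on all shChd4 arrays and 10 on all control arrays, and Lum, Col1a1, Pdgfrb and Col6a2 were detected on no control array. Genes not detected on all control arrays passed the detection filter only through the shChd4 arrays, so the share higher follows in part from the filter. Thbs2, a matrix thrombospondin, rose by 4.57. Decorin (Dcn), a matrix proteoglycan, read 11.83, 11.22 and 11.90 in shChd4 cells and 5.67, 6.87 and 6.24 in control cells. ES cell genes fell for 6 of 12, or 50%, against 18.2% of all genes tested, with 0 rises and a median of -0.71. Their array means were 9.52, 9.96 and 9.42 in shChd4 cells and 10.41, 10.37 and 10.25 in control cells. All 12 were detected on all 6 arrays. Fgf4 and Zfp42 fell, with changes of -1.52 (-0.60 without background correction and -0.66 with the authors' deposited values) and -1.01. Pou5f1, which encodes Oct4, read 10.76, 11.53 and 10.82 in shChd4 cells and 12.44, 12.33 and 12.11 in control cells. Of primitive endoderm genes, 3 of 3 tested, of 6 listed, rose, and of trophoblast genes 1 of 2 tested, of 5 listed. Pdgfra was detected on no control array and Gata6 on 2. Both passed the detection filter only through the shChd4 arrays, where they are high, so the primitive endoderm count follows in part from the filter. The part of these cell type differences in the replication values was not tested, and in bulk RNA fewer cells of a type and less RNA per cell cannot be told apart.

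**Figure D5:**
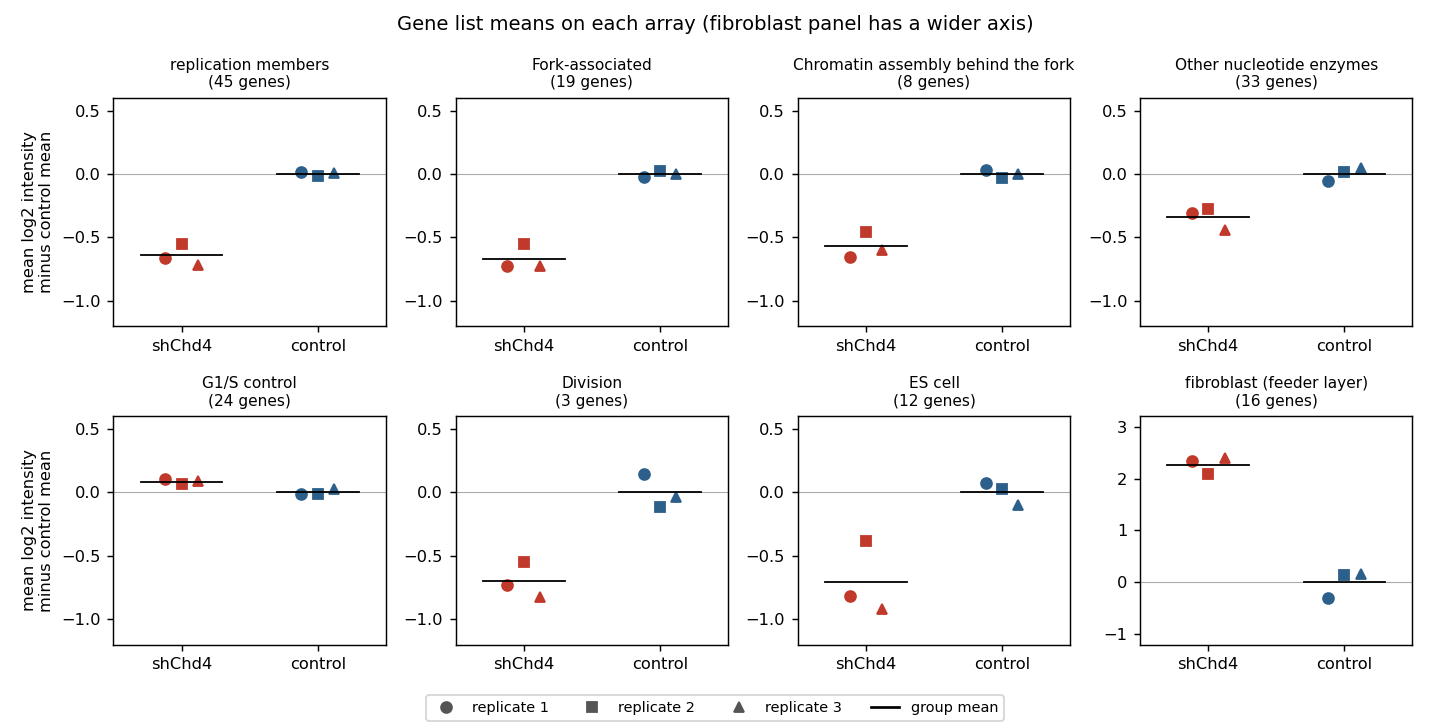
Mean log2 intensity of each gene list on each array minus its control mean, for shChd4 (left in each panel) and control arrays; symbols mark replicates 1 to 3, which have no order, and black lines the group means. The replication panel has its shChd4 points below the control points with replicate 2 nearest to them, and the fibroblast panel, on a wider axis, has its shChd4 points above.

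Genes that work beside the listed ones at the fork fell too. Of 19 tested genes of fork-associated proteins, of 25 listed, 16 fell and 0 rose, with a median of -0.75. The share lower was 84.2%, against 18.2% of all genes tested. Chtf18, a subunit of an alternative clamp loader, read 8.26, 9.004 and 8.74 in shChd4 cells and 9.62, 9.87 and 9.87 in control cells, a change of -1.12 ± 0.20 (SE, n = 3 per group; limma adjusted p = 0.00137). Mcmbp, which binds the Mcm proteins, and Clspn, the claspin gene of the replication checkpoint, fell too, with changes of -0.84 and -0.90. Of 8 tested genes of chromatin assembly behind the fork, of 10 listed, 4 fell, or 50%, and 0 rose, with a median of -0.46. Chaf1b, a subunit of the histone chaperone CAF-1, changed by -1.05, Uhrf1, which brings DNA methylation to new strands, by -1.06, and Nasp, a histone chaperone, by -0.62. Of 3 tested genes of mitotic division, of 6 listed, Aurkb and Cdk1 fell, with changes of -1.02 and -0.85, and Plk1 (-0.22) did not pass.

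Other enzymes of nucleotide metabolism held mostly falls among their calls. Of 33 tested, of 36 listed, 16 fell and 3 rose, with a median of -0.44. These are 48.5% lower and 9.09% higher, against 18.2% and 19.9% of all genes tested. Dhodh, of pyrimidine synthesis, read 7.63, 8.18 and 8.12 in shChd4 cells and 9.53, 9.64 and 9.43 in control cells, a change of -1.56 ± 0.18 (SE, n = 3 per group; limma adjusted p = 7.48e-05). Gart, of purine synthesis, fell by 1.24. Hprt, the purine salvage enzyme, instead read 9.18, 8.48 and 9.21 in shChd4 cells and 5.26, 5.65 and 6.14 in control cells. It rose by 3.27 ± 0.25 (limma adjusted p = 6.03e-06), and the groups did not overlap. Without background correction the rise was 1.90, and with the authors' deposited values 2.01. Some widely used mouse ES cell lines lack a working Hprt gene, and the labels do not name the line used here. Within the shChd4 group Hprt was lowest on replicate 2, as was the fibroblast mean, and the part of the feeder cells in its value was not tested.

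Regulators of entry into S phase held both falls and rises. Of 24 tested, of 30 listed, 8 fell and 6 rose, with a median of -0.27. These are 33.3% lower and 25% higher, against 18.2% and 19.9% of all genes tested, so the share higher is near that of all genes. The 3 with the smallest p are the kinase inhibitor genes Cdkn1a and Cdkn2b and the factor gene E2f2. Cdkn1a read 11.67, 11.23 and 11.68 in shChd4 cells and 8.92, 9.09 and 9.15 in control cells, a rise of 2.47 ± 0.17 (SE, n = 3 per group; limma adjusted p = 3.49e-06). Cdkn2b read 9.25, 8.71 and 9.08 in shChd4 cells and 4.99, 5.99 and 6.69 in control cells, a rise of 3.12 ± 0.34 (limma adjusted p = 5.59e-05). E2f2, an activating member of the E2F family, read 6.13, 6.63 and 6.54 in shChd4 cells and 7.74, 7.76 and 7.88 in control cells, a change of -1.36 ± 0.17 (limma adjusted p = 0.000138). For all 3 genes the groups were apart. Within the shChd4 group Cdkn1a and Cdkn2b were lowest on replicate 2, as was the fibroblast mean, and E2f2 was highest there. The part of the feeder cells in these values was not tested. Without background correction Cdkn2b was 1.85 and E2f2 -0.75, and with the authors' deposited values 1.96 and -0.81, all called.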

How the data were processed

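Total RNA from 6 samples (3 shChd4, 3 control) was labelled with biotin and hybridised to Illumina mouse BeadChips, as the protocols state. The deposited scanner table holds, per the file headers, an intensity (linear) and a detection p-value for each probe on each array; the submitters' processing notes name GenomeStudio, without a version. The intensity values of the deposited series matrix have near-equal medians on all arrays and order the probes as the scanner values do (rank correlation 1); the authors' method for them is not stated here, and they were used as an alternative input.

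For the main values, normexp background correction used the detection p-values and an offset of 16, followed by quantile normalisation and log2 (neqc, limma 3.58.1, R 4.3.3). Of 45281 probes, 34885 had 1 symbol, 18 several and 10378 none in GEO's annotation. Of those with 1 symbol, 34807 were matched to a gene in RefSeq GRCm38.p6 and took the symbol given there. Each gene took its brightest probe, kept if its detection p was under 0.05 on at least 3 arrays, which left 9808 genes. Groups were compared with limma (lmFit, eBayes) with Benjamini-Hochberg adjustment over all 9808. Promoter windows came from RefSeq GRCm38.p6 and were read 5′ to 3′ on the gene's strand. Per role, the up to 3 genes with the smallest p past the threshold and the largest called rise are given array by array, as is Chd4, and the others by their change; of each pathway or marker list, up to 3 genes with the smallest p are named. Pcna and Dut, and further probes and markers beyond the rule, were singled out after their values were seen. Genes, lists and rules were chosen with earlier results of these data known. Arrays give no read depth, so their number limits the precision. Data were also simulated, with 10794 genes tested. There, 23 of 28 falls of 1 and 4 of 24 falls of 0.5 on the log2 scale were called, and 4 of 109 calls were false. The simulation changed only a small share of the probes, all with clear signal, whereas 38.1% of all genes tested were called in the real data. Its rates therefore do not carry over to the calls given here.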

Additional observations from a re-analysis of the deposited data

How the results depend on the processing

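Over 15 alternatives (no background correction, median scaling, the authors' series matrix values, an offset of 50, no detection filter, detection on all 6 arrays or at p under 0.01, array weights, the mean of all detected probes, and each array left out in turn), between 22 and 30 replication genes were called lower, and all 30 called in the main analysis kept a negative change. Of these, 20 were called lower in all 15: Mcm2, Mcm3, Mcm5, Mcm10, Orc1, Cdc6, Gins1, Gins2, Pola2, Pold1, Pold2, Pold3, Pole, Rfc2, Rfc4, Rfc5, Lig1, Tyms, Rrm1 and Tk1. With 1 array left out the count was 22 (without control replicate 2) to 28 (without shChd4 replicate 2), the count of higher genes was 0 to 1, and the calls over all genes (shChd4 against control) numbered 2880 to 3573, against 3735. The only riser, Pold4, was not called without background correction or with the authors' values (0 genes higher in each). The median of the replication genes was -0.52 without background correction and -0.68 to -0.54 in the others. With the mean of all detected probes, Mcm6 (-0.26, adjusted p = 0.172) and Rrm2 (-0.44, adjusted p = 0.0711) were not called. Rpa2 was called without background correction (-0.30, adjusted p = 0.0401) and with the authors' values (-0.31, adjusted p = 0.0406). The causes were not tested.

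Of the 14 replication genes not called, 7 changed sign under an alternative. With median scaling Gins3 was 0.045, Pole3 -0.018, Pole4 0.13 and Dut 0.013, and with array weights Pole4 was 0.025. With 1 array left out the change ran from -0.41 to 0.10 for Dut, -0.41 to 7.1e-05 for Orc2, -0.045 to 0.094 for Orc3, -0.014 to 0.091 for Pole3, -0.11 to 0.15 for Pole4 and -0.14 to 0.043 for Prim2. No paired analysis was possible because the labels give the groups no shared replicate numbers.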
